A study of Mus musculus with 21 samples.

Results

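The expression of 9 genes that mark the layers of the cerebral cortex was followed in mouse brain after water or after trientine (TETA), a drug that binds copper. The 9 were the rows carrying the symbols Cux1, Cux2, Rorb, Pou3f2, Bcl11b, Fezf2, Tbr1, Foxp2 and Tle4, out of 21872 gene symbols in each of the 2 tables analysed, and all 9 were found in both. TETA did not move any of them past the test at embryonic day 18.5 (E18.5). At 7 weeks Bcl11b fell by 13.6% and Rorb fell by 11.8% in TETA libraries, but both calls were lost when certain single libraries were left out. Over all genes at 7 weeks 4.28% were called lower and 11.2% did not overlap between the groups. In the same libraries all 15 markers of striatal projection neurons were called lower (median log2 fold change -1.53), and their levels did not overlap between the groups. With a score of these striatal markers as a covariate, 0 genes of any kind were called, the layer genes included. The estimates of Bcl11b and Rorb then changed sign with wider errors (SE 0.18 and 0.20). The score does not overlap between the groups, so treatment and striatal level cannot be told apart in that fit. Calls rest on edgeR's quasi-likelihood test, with p-values adjusted over all genes by the Benjamini-Hochberg (BH) method. Between E18.5 and 7 weeks 8 of the 9 fell in control and in TETA libraries, where 45.3% and 44.5% of all genes tested were called lower, and in control Bcl11b fell by 76.2%.

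The series asks what copper does in the developing brain and in autism spectrum disorder. It holds 21 RNA-seq libraries in 4 groups: 6 water-treated control and 6 TETA libraries at E18.5, and 5 control and 4 TETA libraries at 7 weeks. The labels call every library brain and name no strain, dose or time of treatment. Stranded mRNA libraries (TruSeq) were made, and the protocol text speaks of the prefrontal cortex of male mice at 7 weeks, while region and sex at E18.5 are not given in the sources used here. Nothing states whether libraries of a group came from separate animals, so the p-values measure only the spread between these libraries, which may be technical in part.

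Cortical excitatory neurons settle in layers according to when they are born, deep layers first and upper layers later. Their identity rests on transcription factors that act in part by repressing each other's programmes. Fezf2 and Bcl11b direct the layer V neurons that project to brainstem and spinal cord, Tbr1 directs the layer VI neurons that project to the thalamus, and Cux1, Cux2 and Pou3f2 belong to the callosally projecting neurons of the upper layers. Most of these genes also serve other cells: Bcl11b and Foxp2 are expressed by the projection neurons of the striatum, the nucleus beneath the cortex, and Pou3f2 by neural progenitors.

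Bcl11b and Rorb were the only 2 of the 9 past the test for TETA at 7 weeks, and their start regions are printed to show the genes the result concerns. The sequences are RefSeq's (GRCm38.p6), 5′ to 3′ on the gene's strand, in windows of 300 bases that span an annotated start. The Bcl11b window is chr12:108003365-108003664 on the minus strand, at the start of a gene that GENCODE M21 places at chr12:107910403-108003602. Rorb, which spans chr19:18930605-19111196 on the minus strand, has 2 windows, and the printed one is chr19:19111147-19111446, at the start of that span. Capitals mark matches, on either strand, to the motifs listed after them.
Bcl11b: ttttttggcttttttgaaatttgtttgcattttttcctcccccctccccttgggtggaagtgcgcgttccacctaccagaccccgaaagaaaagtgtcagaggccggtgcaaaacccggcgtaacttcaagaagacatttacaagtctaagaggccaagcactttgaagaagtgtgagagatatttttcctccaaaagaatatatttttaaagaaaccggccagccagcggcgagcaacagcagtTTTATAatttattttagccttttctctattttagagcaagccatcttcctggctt
Rorb: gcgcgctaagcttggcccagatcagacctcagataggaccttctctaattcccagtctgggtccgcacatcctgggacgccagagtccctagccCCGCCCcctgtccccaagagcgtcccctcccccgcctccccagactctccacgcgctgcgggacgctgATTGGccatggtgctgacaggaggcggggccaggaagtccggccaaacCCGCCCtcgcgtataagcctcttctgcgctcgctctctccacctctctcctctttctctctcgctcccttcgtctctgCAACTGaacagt

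General motifs searched were the core promoter motif TATAAA, the Sp1-type box GGGCGG, the box CCAAT, the E-box CANNTG and the cyclic AMP motif TGACGTCA. Those of the layer genes' own factor families were the octamer ATGCAAAT, the forkhead motif TGTTTAC, the T-box motif AGGTGTGA, the CUX motifs ATCAAT and, as its variant, ATCGAT, and the nuclear receptor site AGGTCA. None of them contains another. Bcl11b's window held 1 match to TATAAA, a motif found in 13.6% of all 32851 windows of that length, and it had a GC content of 43%. In the printed Rorb window there were 2 matches to GGGCGG, 1 to CCAAT and 1 to CANNTG, motifs held by 35.7%, 37.4% and 72.3% of all windows, and its GC content was 63.7%. The other Rorb window, chr19:19001068-19001367, had 3 matches to CANNTG, none to GGGCGG or CCAAT, and a GC content of 41%. RefSeq windows matched 8 of the 9 genes, 11 windows in all, and 2 of the 11 held a match to any of the 6 family motifs, against 27.9% of all windows. Those 2 were a forkhead match at Cux1 and an ATCGAT match at Cux2. A match describes letters only.

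Depth was 14668965 to 24292715 counts per library at E18.5 and 17838051 to 24035857 at 7 weeks, and a layer gene had 288 to 10360 counts in a library. Levels are in CPM, a library's counts brought to 1 common total with edgeR's trimmed mean factors (TMM). The cortical genes Neurod6, Lhx2 and Emx1 were present in every library, Emx1 at 15.9 to 25.7 CPM, and of 10 hindbrain, cerebellum and spinal cord genes 8 averaged below 0.5 CPM in every group. The exceptions were Zic1, at 40.2 to 71.6 CPM in E18.5 libraries and 12.03 to 15.3 at 7 weeks, and Cbln1, at 35.9 to 43.1 and 5.68 to 7.98 CPM. At E18.5 Y-linked genes summed to below 1 CPM in 2 of 6 control and 3 of 6 TETA libraries, whereas all 9 libraries at 7 weeks had them at 128.9 CPM or more. At E18.5 control 2-1 was at 0 and 2-2 at 185.6 CPM, and control 3-1 at 192.3 and 3-2 at 0. TETA 2-1 was at 174.0 CPM and TETA 2-2 at 0. Within each of these pairs the libraries did not come from the same animal. Among the 9 layer genes, control replicate 1-1 was the lowest control library for 7, and TETA replicate 1-2 was the highest TETA library for all 9. None of the 1940 E18.5 genes whose counts were divided by 11 was a layer gene.

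**Figure D1:**
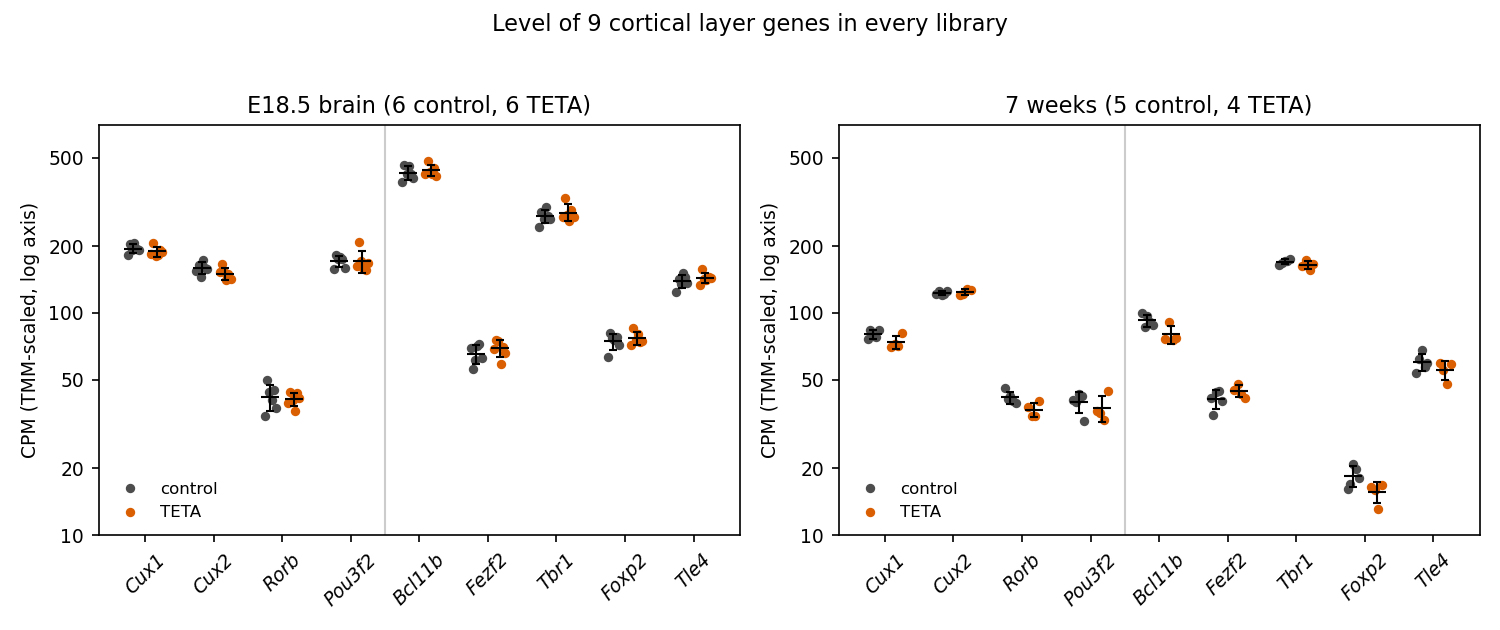
Level of the 9 layer genes in every library, in TMM-scaled CPM on a log axis, with E18.5 on the left and 7 weeks on the right. Points are libraries, black in control and orange in TETA, and bars are the mean ± SD; the grey line parts upper layer genes (left) from deep layer genes. Control and TETA points overlap for all 9 genes at both stages, and at 7 weeks Bcl11b in TETA has 1 point at 91.5 CPM above 3 between 75.5 and 76.9.

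At E18.5 no layer gene passed the test of TETA against control. Of the 9, 0 passed the adjusted threshold of 0.05 with edgeR's quasi-likelihood test, 0 had an unadjusted p under 0.05, and 0 had values that did not overlap between groups. Over all 13794 genes tested, 0.00% passed the adjusted threshold, 4.78% had an unadjusted p under 0.05 and 0.312% did not overlap. DESeq2 also called 0 of the 9, and 10 genes in all. The median log2 fold change of the 9 was 0.03, against -0.0027 over all genes.

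The 4 upper layer genes had estimates at or below 0. Cux2, a homeodomain factor of layers II to IV that shapes dendrites and spines, ranged from 145.3 to 173.8 CPM in control (median 159.0, n = 6) and from 140.0 to 165.3 in TETA (median 151.1, n = 6). The 2 ranges overlapped over most of their length, and the log2 fold change was -0.08 (SE 0.045, 95% interval -0.18 to 0.010). Cux1, its paralogue, ranged from 181.9 to 205.5 CPM in control and from 180.9 to 207.0 in TETA, and the estimate was -0.04 (SE 0.041). Rorb, the nuclear receptor of layer IV neurons, spread from 34.6 to 49.9 CPM in control and from 36.4 to 44.0 in TETA, with a log2 fold change of -0.04 (SE 0.070). Its control spread was the widest of any layer gene in that group, with a coefficient of variation of 13.2%. Pou3f2 (Brn2), a POU factor of upper layer neurons and progenitors, ranged from 158.1 to 182.1 CPM in control and from 155.9 to 208.8 in TETA, where TETA replicate 1-2 alone exceeded 171.5, and its log2 fold change was -0.0021 (SE 0.058).

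The 5 deep layer genes had estimates above 0. Bcl11b (Ctip2), a zinc finger factor of corticospinal neurons, ran from 387.4 to 463.3 CPM in control (median 422.6) and from 413.2 to 483.7 in TETA (median 427.0). The medians lay within 5 CPM of each other, and the log2 fold change was 0.03 (SE 0.048). Fezf2, which specifies subcortical projection neurons upstream of Bcl11b, ranged from 55.9 to 72.4 CPM in control and from 59.2 to 75.9 in TETA, with an estimate of 0.08 (SE 0.063, 95% interval -0.056 to 0.21). Each of these 2 pairs of ranges overlapped. Tbr1, the T-box factor of layer VI, spanned 243.1 to 299.7 CPM in control and 260.4 to 329.0 in TETA, at 0.06 (SE 0.054). Foxp2, a forkhead factor, spanned 63.4 to 81.0 CPM in control and 71.9 to 86.0 in TETA, at 0.05 (SE 0.052). Tle4, a Groucho-family corepressor of corticothalamic neurons, spanned 123.6 to 151.5 CPM in control and 133.9 to 158.2 in TETA, at 0.05 (SE 0.046). In these 3 genes the lowest library was control replicate 1-1 and the highest TETA replicate 1-2. The widest of the 9 intervals, those of Rorb, Fezf2 and Pou3f2, ended between -0.18 and 0.21, so larger log2 changes lay outside them. With both libraries numbered 1-2 left out, a setting added once the data had been seen, 0 of 9 passed. Pou3f2 was then at -0.051, Cux1 at -0.058, Rorb at -0.011, Fezf2 at 0.0063, Tbr1 at 0.022 and Tle4 at 0.026. With each of the 12 libraries left out in turn, 0 of 9 passed each time, and the estimates moved with several libraries, of both groups. Cux1 ran from -0.072 (without TETA 1-2) to -0.027 (without control 1-2), and Cux2 from -0.11 (without TETA 1-2) to -0.057 (without control 2-2). Rorb ran from -0.082 (without control 1-1) to 0.017 (without control 1-2), and Pou3f2 from -0.069 (without TETA 1-2) to 0.022 (without TETA 3-1), so the sign of these 2 depended on the libraries. Bcl11b ran from 0.0025 (without TETA 1-2) to 0.062 (without control 1-2), and Fezf2 from 0.039 (without control 1-2) to 0.12 (without TETA 2-2). Tbr1 ran from 0.0077 to 0.087 and Tle4 from 0.020 to 0.077, both lowest without TETA 1-2 and highest without control 2-2. Foxp2 ran from 0.011 (without control 1-1) to 0.077 (without control 1-2). The 5 deep layer estimates stayed above 0 in all 12 of these fits, which share most of their libraries. Related genes had mixed signs at E18.5. Of 23 further deep layer genes 14 had positive and 9 negative estimates (median 0.02). Of 20 further upper layer genes 12 had negative and 8 positive estimates (median -0.0079). Of 10 general markers of excitatory cortical neurons 9 were positive and 1 negative. No cell type list held a called gene at E18.5. Of 7 endothelial and mural markers 5 had an unadjusted p under 0.05 with edgeR, where 4.78% of all genes did, and the list median was 0.22. The part of these markers in the layer gene estimates was not tested.

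At 7 weeks Bcl11b and Rorb fell in TETA libraries, 1 deep and 1 upper layer gene. These 2 of 9 passed the adjusted threshold, where 9.96% of the 14240 genes tested passed in either direction and 4.28% passed as lower. None of the 9 had values that did not overlap between groups, against 11.2% of all genes. Unadjusted p was under 0.05 for 4 of the 9 (also Cux1 and Foxp2) and for 24.0% of all genes. The median log2 fold change of the 9 was -0.12, with 7 negative estimates, against 0.00019 over all genes.

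Bcl11b stood at 99.9, 86.8, 96.7, 91.4 and 87.9 CPM in control replicates 1 to 5 and at 76.3, 91.5, 75.5 and 76.9 CPM in TETA replicates 1 to 4. TETA replicates 1, 3 and 4 lay below every control, and TETA replicate 2 lay among the controls. Control averaged 92.5 ± 5.66 CPM (SD, n = 5) and TETA 80.1 ± 7.65 CPM (SD, n = 4). The log2 fold change was -0.21 (SE 0.055, 95% interval -0.33 to -0.097, adjusted p = 0.0167, edgeR's quasi-likelihood test). Without TETA replicate 2 it was -0.28 (adjusted p = 0.00109). Without TETA replicate 1, 3 or 4 the call was lost, at -0.19, -0.18 and -0.19 with adjusted p of 0.0596, 0.0740 and 0.0529.

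For Rorb the control replicates read 45.9, 40.8, 42.3, 40.1 and 39.4 CPM and the TETA replicates 37.9, 34.5, 34.5 and 40.2. TETA replicates 1 to 3 lay below all 5 controls, and TETA replicate 4 lay above 2 of them. Control averaged 41.7 ± 2.57 CPM (SD, n = 5) and TETA 36.8 ± 2.79 CPM (SD, n = 4). The log2 fold change was -0.18 (SE 0.055, 95% interval -0.30 to -0.066, adjusted p = 0.0425 with edgeR). The call stood without control replicate 5 (adjusted p = 0.0289) or TETA replicate 4 (0.0171). It was lost without control replicate 1 (adjusted p = 0.111), 2 (0.0564), 3 (0.0750) or 4 (0.0511), without TETA replicate 1 (0.0567), 2 (0.120) or 3 (0.156), and on library totals without TMM scaling (0.0628).

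Foxp2, which marks corticothalamic neurons of layer VI and is also known for its role in vocal communication, had the largest estimate of the 9 but a wide spread. It read 16.1, 17.02, 20.9, 19.97 and 18.1 CPM in control and 16.5, 16.1, 13.2 and 16.9 in TETA. Control replicate 1 lay within the TETA range, and TETA replicate 3 was the lowest of all. The log2 fold change was -0.23 (SE 0.084, 95% interval -0.41 to -0.058, adjusted p = 0.0864), and it passed only without control replicate 1 (-0.28, adjusted p = 0.0438).

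Cux1 read 76.1, 84.1, 78.6, 78.1 and 84.0 CPM in control and 70.4, 72.6, 70.8 and 81.6 in TETA. TETA replicates 1 to 3 lay below all controls and TETA replicate 4 among them. Its log2 fold change was -0.12 (SE 0.047, adjusted p = 0.117), and it passed only without TETA replicate 4 (-0.17, adjusted p = 0.0187). Cux1 is the only layer gene whose annotated exons overlap another gene, the antisense Gm16599, over 394 bases (1.97% of its exon length); the strand setting of the counting is not stated.

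The other 5 did not pass with all libraries. Tle4 was at 60.1 ± 5.49 CPM in control and 55.4 ± 5.21 in TETA (SD), with a log2 fold change of -0.12 (SE 0.064, adjusted p = 0.280). Pou3f2 was at 39.8 ± 4.25 and 37.4 ± 5.08 CPM, at -0.09 (SE 0.080, adjusted p = 0.542). Tbr1 was at 169.9 ± 4.14 and 164.5 ± 6.54 CPM, at -0.05 (SE 0.034, adjusted p = 0.444). The 2 genes with positive estimates were Fezf2, read at 41.6, 34.9, 44.3, 44.8 and 40.2 CPM in control and 45.2, 48.1, 43.3 and 41.5 in TETA, and Cux2. Fezf2's log2 fold change was 0.12 (SE 0.062, 95% interval -0.014 to 0.25, adjusted p = 0.271). Cux2 had the smallest spread of the 9 at 7 weeks, with coefficients of variation of 1.94% in control and 3.21% in TETA, and its log2 fold change of 0.02 (SE 0.034) had a 95% interval of -0.055 to 0.086.

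**Figure D2:**
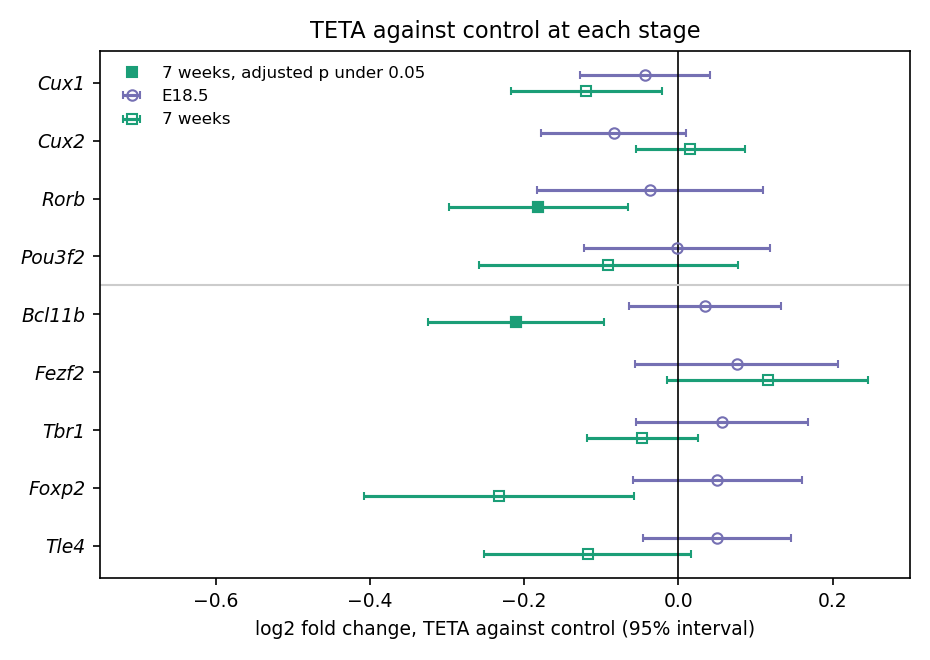
Log2 fold change of TETA against control for each layer gene, with its 95% interval, at E18.5 (open circles) and at 7 weeks (squares); filled squares passed an adjusted p of 0.05 and the grey line parts upper from deep layer genes. All 9 E18.5 intervals cross 0. At 7 weeks those of Bcl11b, Rorb, Foxp2 and Cux1 lie below 0, and only Bcl11b (-0.21) and Rorb (-0.18) are filled.

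Markers of striatal projection neurons were lower in the TETA libraries at 7 weeks. Over all genes tested 4.28% were called lower and 11.2% did not overlap between groups. The list was chosen with earlier results of these data known. All 15 of its genes were called lower in TETA and none of the 15 overlapped between groups, with a median log2 fold change of -1.53. Their summed level was 1239.7, 1042, 1201, 1156 and 1013 CPM in control replicates 1 to 5 and 586, 587, 462 and 525 CPM in TETA replicates 1 to 4. The most abundant were Adcy5 (283.5 to 327.2 CPM in control, 182.0 to 199.9 in TETA), Ppp1r1b (180.1 to 217.3 and 75.03 to 105.0) and Pde10a (171.5 to 224.0 and 86.9 to 109.9), and no gene of the list was at 0 in every library of a group.

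With a striatal score, the mean log2 level of that list, as a covariate, 0 of 9 layer genes and 0 genes of any kind were called at 7 weeks. The estimate was then 0.22 for Bcl11b (SE 0.18) and 0.09 for Rorb (SE 0.20), of opposite sign to those without it. The score does not overlap between the groups, so treatment and striatal level cannot be told apart in that fit. Nor can a difference in the tissue dissected be told apart from treatment with these libraries. In bulk tissue, fewer cells of a type and less RNA per cell cannot be told apart. At E18.5 the striatal sum ran from 625.4 to 695.7 CPM in control and from 637.6 to 682.1 in TETA, with 0 of 14 genes tested called.

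**Figure D3:**
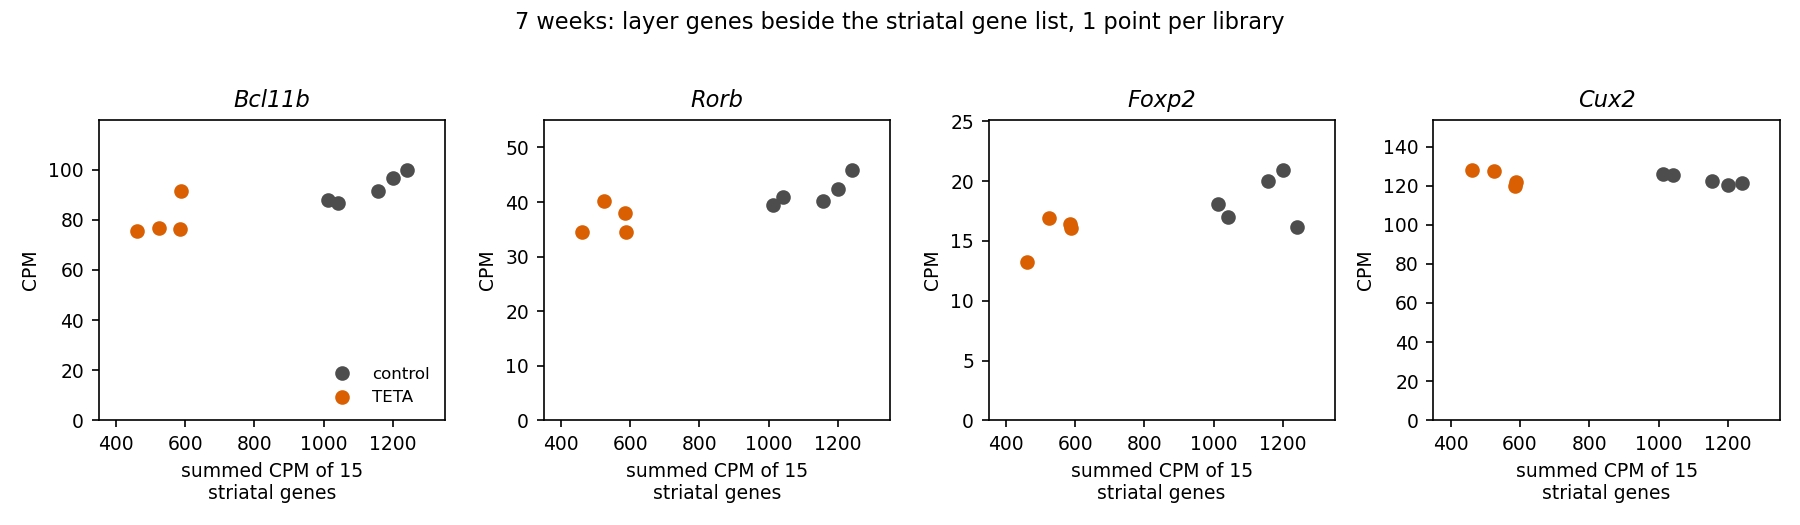
Level of layer genes at 7 weeks (vertical axis, TMM-scaled CPM) against the summed level of 15 striatal projection neuron markers (horizontal axis, CPM), 1 point per library, black for control and orange for TETA. The striatal sums form 2 separate ranges, 462 to 587 CPM in TETA and 1013 to 1239.7 in control, so the groups never meet on the horizontal axis.

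General markers of excitatory cortical neurons did not shift one way at 7 weeks. Of 10, 2 were called higher (Nptx1 at 0.28 and Neurod2 at 0.22 on the log2 scale) and 1 lower (Emx1 at -0.26), where 9.96% of all genes were called in either direction. Their summed level ran from 7880.1 to 8954 CPM in control and from 8146 to 8783 in TETA. Summed over the 4 upper layer genes, levels were 281.8 to 290.0 CPM in control and 264.3 to 293.8 in TETA, and over the 5 deep layer genes 368.8 to 401.5 and 337.0 to 383.4; both pairs of ranges overlap. Among other cell types, 3 of 10 interneuron, 2 of 9 progenitor, 1 of 9 oligodendrocyte, 2 of 7 astrocyte, 2 of 7 choroid plexus and meninges and 1 of 2 hindbrain and cerebellum markers were called lower, where 4.28% of all genes were. Of 7 endothelial and mural markers 1 was called higher, and none was called among 6 thalamus and midbrain, 6 hippocampus, 7 microglia and 5 blood markers. Their part in the layer gene results was not tested.

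A wider set of 20 further upper layer genes gave 2 called higher and 4 called lower at 7 weeks, 6 of 20 where 9.96% of all genes were called. Dkk3, a secreted Wnt modulator, rose from 466.8 ± 12.7 to 514.6 ± 7.70 CPM (log2 fold change 0.14, SE 0.028), and Otof, an otoferlin gene expressed in layer II and III neurons, from 19.7 ± 2.1 to 27.4 ± 5.04 CPM (0.48, SE 0.097). Falling were Mef2c, an activity-dependent transcription factor (-0.14), Calb1, the calcium buffer calbindin (-0.15), the netrin receptor Unc5d (-0.15) and the Kit ligand Kitl (-0.15). The median over the 20 was -0.08.

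Of 23 further deep layer genes, 1 was called higher and 3 lower, to be read against the same 9.96%. Ldb2, a LIM domain cofactor of layer V neurons, rose from 72.8 ± 4.71 to 83.2 ± 2.87 CPM (log2 fold change 0.19, SE 0.046). Nr4a2, an orphan nuclear receptor of the subplate and claustrum, fell from 21.3 ± 1.42 to 15.2 ± 1.30 CPM (-0.49, SE 0.069), while Foxp1, a forkhead factor that striatal neurons also express, was at -0.21 (SE 0.041) and Syt6, a synaptotagmin, at -0.23 (SE 0.063). The median over the 23 was 0.03.

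Paralogues of the layer genes were mixed as well, with 3 of 15 tested called higher and 2 lower, again beside 9.96% of all genes. The corepressors Tle2 (log2 fold change 0.49), Tle6 (0.52) and Tle3 (0.16) rose, whereas Tle4 did not pass. Pou3f4, a POU paralogue of Pou3f2, fell by 0.55 on the log2 scale, from 9.07 ± 0.996 to 6.19 ± 0.516 CPM, and Foxp1 is the same gene as in the deep layer list. At E18.5 none of these 3 lists held a called gene, among 20, 23 and 16 tested, with 1 gene of each at an unadjusted p under 0.05.

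No layer gene passed the test that its TETA effect differed between the stages. Of the 9, 0 passed, against 3.1% of 14660 genes, and 3 had an unadjusted p under 0.05, against 15.9%. The log2 difference, 7 weeks minus E18.5, was -0.26 for Bcl11b (SE 0.079, 95% interval -0.42 to -0.096, adjusted p = 0.0670 with edgeR), -0.29 for Foxp2 (SE 0.10, adjusted p = 0.125) and -0.18 for Tle4 (SE 0.085, adjusted p = 0.293). Bcl11b passed without control replicate 1-2 (-0.28, adjusted p = 0.0356) or 2-2 (-0.28, 0.0465) of E18.5, or without TETA replicate 2 of 7 weeks (-0.33, 0.0140). DESeq2 called 0 of 9.

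Between stages most layer genes fell. In control, 8 of 9 were called lower at 7 weeks than at E18.5 and all 8 had values that did not overlap between the stages, where 89.3% of the 14660 genes tested were called, 45.3% as lower, and 79.5% did not overlap. Stage, table and possibly brain region go together in these libraries and cannot be told apart. Sex differed in part with stage as well. Y-linked genes summed to below 1 CPM in 2 of 6 control libraries at E18.5 and in 0 of 5 at 7 weeks. The part of sex in the stage comparison was not tested. Markers of other cells moved with stage in control. Astrocyte markers summed to 447.8 to 524.5 CPM at E18.5 and 4756 to 5397 at 7 weeks, with 7 of 7 called higher, and 8 of 9 oligodendrocyte markers were called higher, with sums of 221.8 to 244.0 and 5489 to 6475 CPM. All 7 microglia markers were called higher, with sums of 53.3 to 61.3 and 330.2 to 364.1 CPM. Of 10 progenitor markers 9 were called lower and 1 higher, with sums of 594.2 to 640.7 CPM at E18.5 and 127.7 to 137.3 at 7 weeks. Their part in the falls of the layer genes was not tested.

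The falls were unequal. On CPM scaled over both stages together, Bcl11b averaged 410.4 ± 29.3 CPM at E18.5 (SD, n = 6) and 97.8 ± 6.002 at 7 weeks (SD, n = 5), a log2 change of -2.07 (SE 0.056). Pou3f2 went from 164.6 ± 9.72 to 42.1 ± 4.52 CPM, at -1.97 (SE 0.076), and Foxp2 from 71.6 ± 6.06 to 19.5 ± 2.1 CPM, at -1.89 (SE 0.069). These were the 3 steepest falls of the 9. Cux1 fell by 54.8% (log2 fold change -1.14, SE 0.045) and Tle4 fell by 52.5% (-1.07, SE 0.058). Tbr1 fell by 31.4% (-0.54, SE 0.051), Fezf2 fell by 31.3% (-0.54, SE 0.069) and Cux2 fell by 15.1% (-0.24, SE 0.042). Of these 8 adjusted p-values from edgeR, that of Cux2 was the largest, at 6.15e-06.

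Rorb alone was not called. On the common scale it ranged from 33.2 to 48.1 CPM at E18.5 (median 40.6) and from 41.6 to 48.5 at 7 weeks (median 43.2). The ranges overlapped, and the log2 fold change was 0.13 (SE 0.069, adjusted p = 0.0779 with edgeR). It passed as higher with DESeq2 (0.16, adjusted p = 0.0296), with the counts as deposited (0.16, 0.0471) and without control replicate 1-2 of E18.5 (0.18, 0.0110), and was at -0.02 on library totals without TMM scaling. Dropping TMM moved the median of all genes in this comparison from -0.02 to -0.17, so relative to that median Rorb stayed above 0 in both.

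In TETA libraries 8 of 9 were again called lower at 7 weeks, where 88.1% of all genes were called, 44.5% as lower, and 80.3% did not overlap. Log2 fold changes were -2.33 for Bcl11b (SE 0.062), -2.18 for Foxp2 (SE 0.077), -2.07 for Pou3f2 (SE 0.083), -1.25 for Tle4 (SE 0.064), -1.23 for Cux1 (SE 0.049), -0.66 for Tbr1 (SE 0.054), -0.51 for Fezf2 (SE 0.073) and -0.15 for Cux2 (SE 0.045, adjusted p = 0.00322). Cux2 was the only called gene of the 8 whose values overlapped between the stages. Rorb was at -0.03 (SE 0.074, adjusted p = 0.735).

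**Figure D4:**
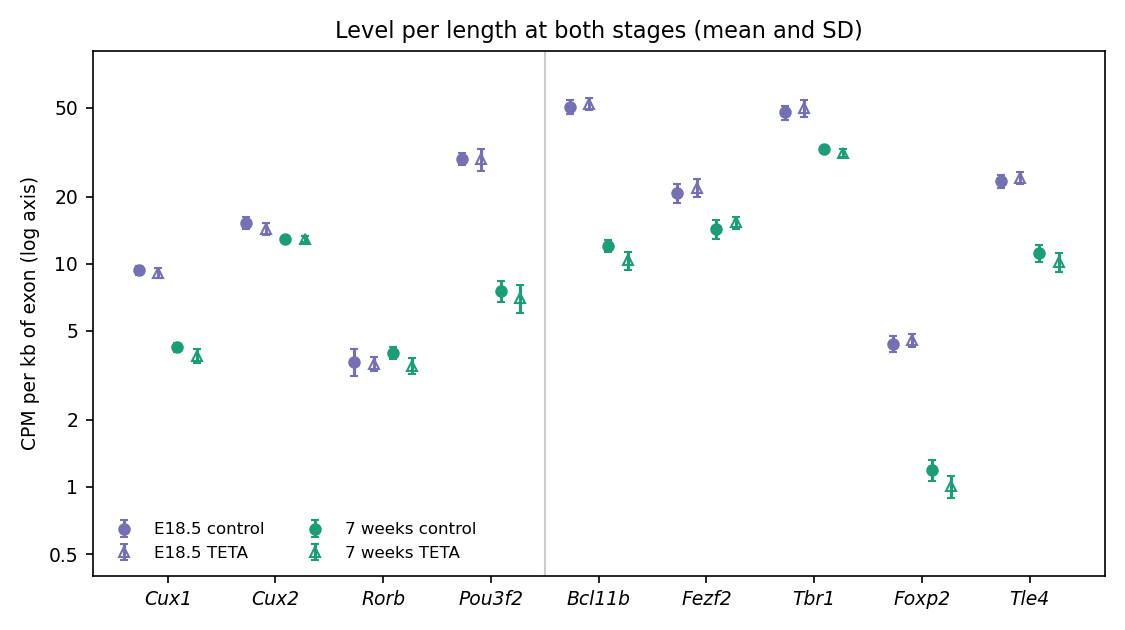
Level of the layer genes at E18.5 and at 7 weeks in control and TETA, as CPM per kilobase of exon on a log axis, scaled over both stages together; points are group means and bars the SD. In control Bcl11b drops from 50.6 to 12.1 while Tbr1 moves from 47.7 to 32.7, and Rorb, at 3.64 and 3.98, does not drop.

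Per kilobase of exon (GENCODE M21 lengths, GRCm38) the order of the genes differed between the stages. The length is the union of exons over all annotated transcripts, and is the same at both stages. It was longest for Cux1 (20024 bases, 14 transcripts) and Foxp2 (16346 bases, 20 transcripts), and shortest for Fezf2 (3047 bases, 3 transcripts). The rank of a gene depends on this length, which may exceed that of the transcripts expressed. In E18.5 control the medians were 50.1 CPM per kb for Bcl11b and 47.1 for Tbr1, whose ranges overlapped, then 30.0 for Pou3f2. Tle4 (23.4) and Fezf2 (20.8) overlapped next, followed by Cux2 (15.1) and Cux1 (9.25), and Foxp2 (4.502) and Rorb (3.67) overlapped at the bottom. At 7 weeks Tbr1 led alone at 33.0 CPM per kb in control. Fezf2 (14.4), Cux2 (12.8), Bcl11b (11.9) and Tle4 (10.97) formed a run in which each overlapped the next, then came Pou3f2 (7.72), the overlapping Cux1 (4.14) and Rorb (3.90), and Foxp2 (1.17). TETA libraries gave the same order at E18.5, and at 7 weeks Tle4 (10.5) and Bcl11b (9.94) changed places, with overlapping ranges.

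Other layer genes moved in both directions between the stages in control, a comparison that called 89.3% of all genes. Of 20 further upper layer genes, 9 were called higher and 11 lower. Dkk3 rose by 3.36 on the log2 scale and Lamp5, a membrane protein of upper layer neurons and some interneurons, by 7.22. Of 23 further deep layer genes, 9 were called higher and 14 lower, with the neurotensin receptor Ntsr1 at -2.80, the basic helix-loop-helix factor Bhlhe22 at -2.75 and the complexin Cplx3 at 5.45. Among 18 paralogues, 4 were called higher and 12 lower: Bcl11a fell by 1.97, Eomes, a T-box factor of intermediate progenitors, fell by 6.72, and Rora rose by 3.33 where Rorb did not pass.

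Across the 21 libraries, with each group's mean removed, pairs of layer genes correlated from -0.16 to 0.79 (Pearson r, median 0.45 over 36 pairs). Libraries share depth and composition, so these values are descriptive. The closest pair was Foxp2 and Tle4 (0.79), followed by Tbr1 with Cux1 (0.74) and Tbr1 with Bcl11b (0.72), and the lowest was Fezf2 with Cux1 (-0.16). The median was 0.40 over the 10 deep pairs, 0.50 over the 6 upper pairs and 0.45 over the 20 mixed pairs. Among 10541 genes with a mean of at least 5 CPM at both stages, the 2 most alike were Mia2 (0.88) and Camta1 (0.86) for Bcl11b, Fzd3 (0.87) and Sp4 (0.85) for Rorb, and Prex1 (0.84) and Emc1 (0.81) for Cux2. They were Uggt1 (0.83) and Atp2b2 (0.82) for Cux1, Pitpnc1 (0.82) and Flrt2 (0.81) for Tle4, Socs4 (0.82) and Mtus1 (0.81) for Foxp2, Frmd4b (0.80) and Sox2 (0.80) for Pou3f2, and Elf2 (0.80) and Brpf1 (0.79) for Fezf2.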

How the data were processed

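RNA was measured in 21 mouse brain libraries. The deposited values are raw counts per gene symbol, as the authors made them, in 1 table per stage, per the file headers. STAR 2.7.1a, featureCounts 2.0.1 and mm10 are named in the submitters' processing notes; the annotation and the strand setting are not given in the sources used here. In the E18.5 table, 1940 genes at 0 in control replicate 1-1 had multiples of 11 in every other library and were divided by 11. Groups came from the labels.

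Genes were kept by filterByExpr (minimum count 10), scaled by TMM and tested with edgeR 4.0.16 (quasi-likelihood, BH over all genes, threshold 0.05) in R 4.3.3. Each stage was fitted alone for TETA against control; stage contrasts and their difference used 1 fit of all 4 groups. The SE is the log2 fold change over the square root of F. Alternatives were other filters, DESeq2 1.42.0, no TMM factors, limma 3.58.1 voom weights, a striatal covariate, the replicate block, summed libraries, undivided counts and each library left out; a Y-linked covariate and leaving out both libraries numbered 1-2 were added after seeing the data. The fits were tested on simulated data. No replicate pair agreed within counting noise (lowest chi-square per gene 2.30).

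All 9 layer genes are named, with up to 6 called genes per related list of smallest p, the 3 most abundant markers of a summed list, and the 2 genes most alike by correlation; the stage examples from the related lists, the called excitatory markers and the region checks were chosen after their values were seen. The genes most alike to Tbr1 are not reported here. The members and lists were chosen with earlier results of these data known. Exon lengths and positions are GENCODE M21's, and log2 CPM for likeness used a prior count of 2.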

Additional observations from a re-analysis of the deposited data

Results flagged for a closer look

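Each of the 9 genes was examined in each of the 4 groups, 36 sets of values in all, and in 2 of them 1 library stood apart from the others; chance gives about 1 in 20. Bcl11b in TETA replicate 2 at 7 weeks was the highest of 4, and its gap to the next library took 0.906 of the group's range (critical value 0.829): it read 91.5 CPM, the other 3 between 75.5 and 76.9. The Bcl11b estimate was -0.21 with that library and -0.28 without it. Pou3f2 in TETA replicate 1-2 at E18.5 was the highest of 6 at 208.8 CPM, with a gap of 0.675 of the range (critical value 0.625).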

How the results depend on the processing

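With all libraries 2 of 9 layer genes were called at 7 weeks; the count was 1 on library totals without TMM, 0 with the striatal score as a covariate, and 0 to 2 with 1 library left out. With the replicate block 2 were called at 7 weeks (Bcl11b adjusted p = 0.0341, Rorb 0.0416) and 0 at E18.5; same-numbered libraries had correlations of -0.275 to 0.284 at E18.5, and at 7 weeks of -0.069 to -0.030, so the numbers were not taken as pairs. The test of the difference between stages called 0, and 0 to 1 with 1 library left out. The other alternatives kept each count of called layer genes within 1.5 times. Under the striatal covariate 7 estimates at 7 weeks changed sign: Bcl11b 0.22, Rorb 0.086, Cux2 -0.20, Pou3f2 0.36, Tbr1 0.057, Foxp2 0.33 and Tle4 0.26. At E18.5 Pou3f2 turned to 0.0051 with libraries of the same first number summed and to 0.015 with the Y-linked covariate, and ran from -0.069 to 0.022 with 1 library left out, as Rorb did from -0.082 to 0.017. Between stages Rorb was at -0.018 in control without TMM; in TETA it was at 0.00086 with DESeq2, 0.00037 with counts as deposited, and -0.076 to 0.0058 with 1 library left out. Fezf2's difference between stages ran from -0.026 to 0.067 with 1 library left out. The cause of these changes was not tested. Foxp2 at 7 weeks rests on 288 to 421 counts per library, the fewest of the 9.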
